A study of Mus musculus with 5 samples.

Results

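The genes described here are 43 members of the DNA damage response and repair pathways, chosen by name and grouped by the lesion they act on: homologous recombination with the Fanconi anemia genes (16 genes), mismatch repair (3), excision repair (12), end joining (6) and the checkpoint (6). Probes were taken where the platform annotation gave a listed symbol. Of the 43, 39 had a probe, with 71 probes in all among 25697 on the array, and 35 had a probe that entered the fit, among 8828 genes. Trp53, Atr, Fanca and Xrcc2 had no probe under their symbols. Nbn, Neil3, Xrcc5 and Lig4 had probes that missed the detection filter.

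RNA came from 5 samples of 46C, a line of mouse embryonic stem cells in which green fluorescent protein reports on Sox1, an early neural gene. The ESC samples (n = 2) grew on gelatin, free of feeders and serum, in N2B27 (a defined medium) with LIF, BMP and 100 nM PD173074, an inhibitor of the FGF receptor, which keeps them pluripotent. For the N2B27 48 hr samples (n = 3) the same cells were trypsinized, washed and replated in N2B27 without LIF, BMP or PD173074 and taken at 48 hr, when the labels call them competent for differentiation signals. All additions were removed together and at a single time, in a single line, so the arms of that change cannot be told apart.

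Cells meet each kind of DNA lesion with a dedicated set of proteins. Homologous recombination copies a sister chromatid to mend a break and end joining seals the ends directly. Mismatch repair corrects replication errors, and excision repair removes a damaged base (base excision) or a stretch around a bulky lesion (nucleotide excision). The checkpoint kinases ATM, ATR, CHK1 and CHK2 and the factor p53 couple damage to the cell cycle and to cell death. Embryonic stem cells divide rapidly, with a short G1 phase, and are known for high levels of many repair proteins.

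On each array 10806 to 12218 of the probes (42.1% to 47.5%) were detected above background, and the mean signal was lowest on N2B27 48 hr replicate 1 (187 against 235 to 264 on the other arrays). Normalized values of the probes correlated with Pearson's r of 0.996 between the ESC arrays, 0.991 to 0.994 within N2B27 48 hr and 0.949 to 0.956 across groups. All 6 naive stem cell markers fell, Klf4 among them to where none of its probes was above background on any N2B27 48 hr array. The brighter probes of Tbx3 were not above background there either, but its dimmest probe was, on all 3 of those arrays. All 4 tested epiblast markers rose, with Fgf5 above background on no ESC array, and Sox3, also on that list, was undetected on every array. The 4 general pluripotency markers were mixed: by their brightest probes Pou5f1, Sox2 and Sall4 were lower and Utf1 was higher. Of the markers of other cells, those of neural, endoderm, mesoderm and trophectoderm cells had 4 of 5, 4 of 5, 2 of 4 and 2 of 3 members undetected on every array. The 7 fibroblast markers had a summed linear signal of 167 to 174 in ESC and 735 to 1032 in N2B27 48 hr, with Thy1, Dcn and Acta2 higher and Col1a1, Col1a2 and Pdgfrb on no array, and their part in the results below was not tested. In such bulk samples fewer cells that express a gene and less RNA per cell cannot be told apart.

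Most of the repair genes measured changed little: 30 of 35 lay within 0.5 log2 units of 0 (85.7%), as did 66.9% of all genes. Signals are given as normalized log2 values, and a change is N2B27 48 hr minus ESC on that scale with its standard error (SE). A gene was called where limma's moderated test, adjusted by Benjamini-Hochberg over all probes in the fit, gave p under 0.05. Of the 35 members in the fit, 7 were higher, 4 were lower and 24 did not pass, while 45.2% of all genes tested were called, 23.8% higher and 21.4% lower. The groups did not overlap for 18 of the 35, against 65% of all genes. The median size of a member's change, without regard to sign, was 0.20, and that of all genes 0.33. A change of at least 2-fold was called for 1 member upward (Trp53bp1) and 1 downward (Fancg), where 5.29% of all genes were higher and 7.51% lower by as much. For each of the 24 members that did not pass, the 95% interval of the change lay within 1 log2 unit of 0. The intervals together ran from -0.52 to 0.80. Some of these members lay near background, such as Brca1 (4.62 in ESC, 4.74 in N2B27 48 hr) and Ogg1 (4.82 and 4.75). The offset of 16 added before log2 understates changes of such dim genes, so their narrow intervals do not show that they changed little.

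**Figure D1:**
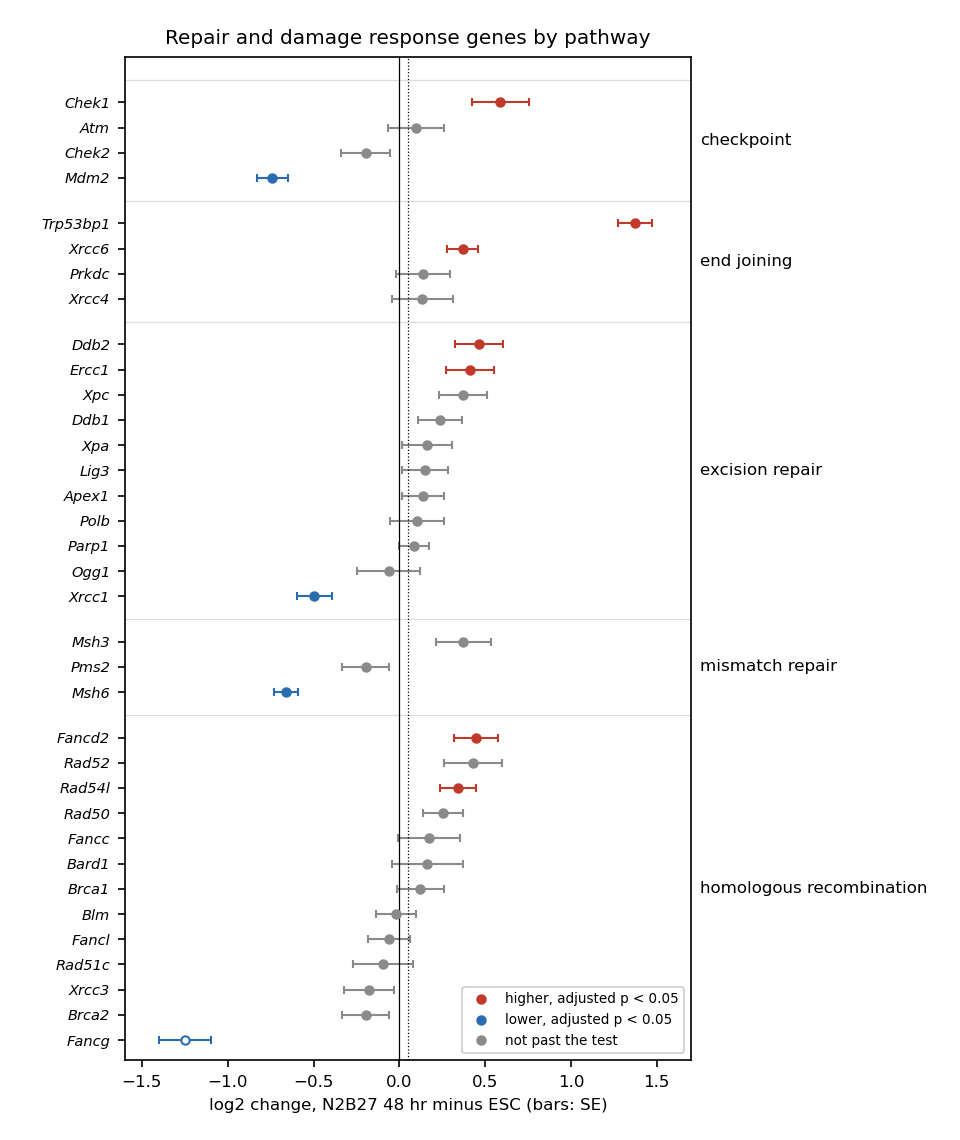
Log2 change of each of the 35 repair genes in the fit, N2B27 48 hr (n = 3) minus ESC (n = 2), by pathway; points are fitted changes, bars their SE, the dotted line the median of all genes (0.049). Trp53bp1 lies at 1.37, the 24 genes in grey did not pass the test, and the open symbol marks Fancg, not above background on the N2B27 48 hr arrays, whose place is not a measured size (at least 2.17-fold lower).

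The calls of the 6 smaller rises, though not their direction, depended on how arrays were scaled or on which arrays were in the fit. Scaling each array to its median moved the median change of all genes from 0.049 to -0.11. Under it 1 member was higher (Trp53bp1) and 4 were lower (Fancg, Msh6, Xrcc1, Mdm2), against 7 and 4. Relative to that shifted median the other 6 genes that had been higher still lay at 0.18 (Rad54l) to 0.51 (Chek1). With ESC replicate 1 left out 2 members were higher and 2 lower, without ESC replicate 2 the counts were 2 and 3, and without N2B27 48 hr replicate 2 they were 4 and 4. Trp53bp1, Msh6 and Mdm2 were called in all 19 alternatives, and Fancg in all 16 in which it could be tested. Fancg was above background on the ESC arrays only and entered the fit through them, so its repeated calls say nothing of its stability.

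**Figure D2:**
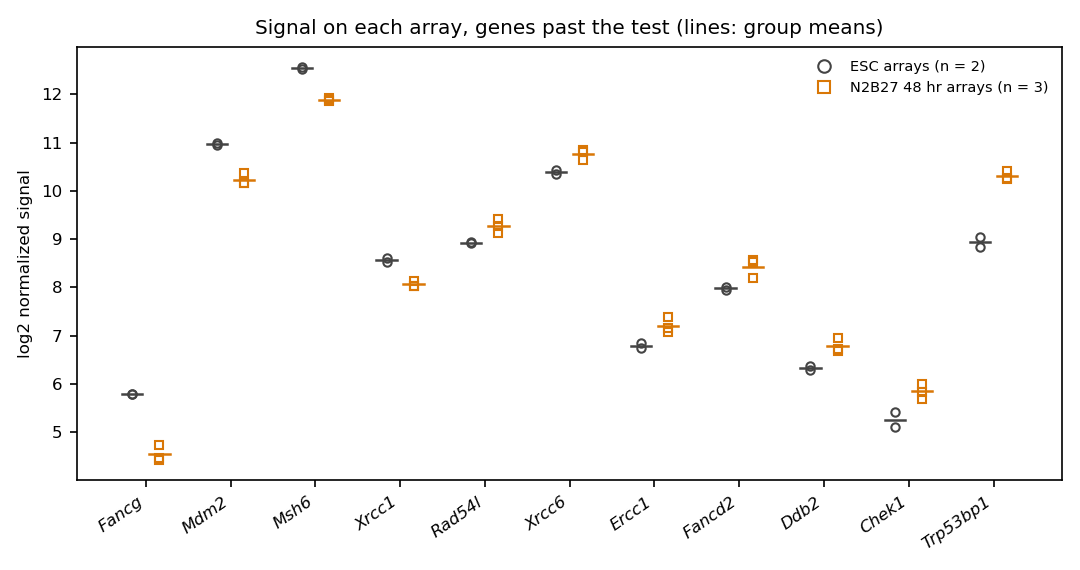
Normalized log2 signal on each array of the 11 repair genes past the test, ordered by their change; circles are ESC arrays (n = 2), squares N2B27 48 hr arrays (n = 3) and lines group means. In each of the 11 genes the groups do not overlap, as in 65% of all genes tested. The 11 were picked by the test on these same arrays, so the separation is no added support. Levels of different genes come from different probes and are not comparable.

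The starts of Trp53bp1, Msh6 and Mdm2, which were called in every alternative, and of Fancg are shown because they carry the larger changes. They are RefSeq promoter windows of GRCm38.p6, 250 bases before to 50 after the start, read 5′ to 3′ along the gene. Capitals mark matches to E2F-type letters (TTTGGCGC, TTTCGCGC, TTTCCCGC or TTTGCCGC) or to the CCAAT box (CCAAT), searched on both strands. E2F factors are known to act on many S phase genes.
Trp53bp1, chr2:121271358-121271657, minus strand: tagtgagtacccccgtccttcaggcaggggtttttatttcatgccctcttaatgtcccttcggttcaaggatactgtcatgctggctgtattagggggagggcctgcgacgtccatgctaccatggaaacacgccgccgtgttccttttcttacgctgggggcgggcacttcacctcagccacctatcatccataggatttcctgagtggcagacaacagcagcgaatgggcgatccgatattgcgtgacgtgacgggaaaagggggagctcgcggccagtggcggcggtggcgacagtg
Fancg, chr4:43010252-43010551, minus strand: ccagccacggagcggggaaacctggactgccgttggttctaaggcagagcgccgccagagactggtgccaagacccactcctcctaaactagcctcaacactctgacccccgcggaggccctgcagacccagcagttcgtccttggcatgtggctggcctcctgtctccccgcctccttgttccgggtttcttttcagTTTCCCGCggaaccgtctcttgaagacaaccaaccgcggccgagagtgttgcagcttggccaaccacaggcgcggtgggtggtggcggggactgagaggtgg
Msh6, chr17:87974800-87975099, plus strand: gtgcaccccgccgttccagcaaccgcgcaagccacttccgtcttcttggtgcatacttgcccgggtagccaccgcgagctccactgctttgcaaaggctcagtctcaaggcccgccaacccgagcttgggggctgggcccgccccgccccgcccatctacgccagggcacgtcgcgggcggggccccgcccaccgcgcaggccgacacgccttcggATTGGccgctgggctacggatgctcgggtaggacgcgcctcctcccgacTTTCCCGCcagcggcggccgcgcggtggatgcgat
Mdm2, chr10:117710709-117711008, minus strand: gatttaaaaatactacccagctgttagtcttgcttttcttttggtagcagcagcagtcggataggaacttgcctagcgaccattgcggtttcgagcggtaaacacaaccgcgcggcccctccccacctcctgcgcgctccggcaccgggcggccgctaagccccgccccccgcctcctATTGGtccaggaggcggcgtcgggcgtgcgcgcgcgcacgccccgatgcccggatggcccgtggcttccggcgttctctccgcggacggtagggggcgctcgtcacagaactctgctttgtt

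The window of Msh6 holds an E2F-type match and a CCAAT box on the reverse strand, that of Fancg an E2F-type match, and that of Mdm2 a reversed CCAAT box, while that of Trp53bp1 holds neither string. The table has windows for 35 of the 43 members, 38 windows in all. An E2F-type match was found in 9 of the 38 (23.7%), against 2.26% of all 32851 windows and 2.85% of the 21263 of protein-coding genes. A CCAAT box was found in 19 (50%), against 37.4% of all and 38.2% of protein-coding windows. No match of one kind overlapped one of the other in the members' windows. G and C made up 59.9% of the bases in the members' windows and 56.2% in those of protein-coding genes. The 8 genes with an E2F-type match were Bard1, Brca2, Chek2, Fancg, Msh3, Msh6, Rad51c and Xrcc6, of which 1 was higher, 2 were lower and 5 did not pass, beside 23.8% higher and 21.4% lower among all genes tested.

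Of the 11 genes of homologous recombination proper, 9 were tested, 1 was higher and 0 were lower, where 45.2% of all genes were called. Together with the Fanconi genes 2 of 13 tested members were higher and 1 was lower, with a median change of 0.12 beside 0.049 for all genes. That median was 0.0017 without N2B27 48 hr replicate 1, the array of lowest mean signal, beside 0.046 for all genes. Under median scaling it was -0.056, beside -0.11 for all genes. Rad54l, which encodes a motor protein that acts on chromatin during recombination, had signals of 8.92 and 8.94 in ESC and 9.41, 9.28 and 9.12 in N2B27 48 hr. All 3 later arrays lay above both ESC arrays (change 0.34 ± 0.107 SE, adjusted p = 0.0244). Its call was lost under cyclic loess (0.19, adjusted p = 0.192) and with ESC replicate 1, ESC replicate 2, N2B27 48 hr replicate 1 or N2B27 48 hr replicate 2 left out, where the change was 0.33, 0.36, 0.27 and 0.33 (adjusted p = 0.148, 0.127, 0.0624 and 0.0741).

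Rad52, whose product anneals single strands, was at 7.13 and 7.13 in ESC and at 7.22, 7.82 and 7.64 in N2B27 48 hr (change 0.43 ± 0.167, adjusted p = 0.0591). It did not pass, although its groups do not overlap, and it passed without N2B27 48 hr replicate 1 (0.60, adjusted p = 0.0052). Brca1, the tumour suppressor that directs breaks to recombination, changed by 0.12 ± 0.138 and its partner Bard1 by 0.16 ± 0.207, with overlapping groups and adjusted p-values of 0.516 and 0.566. Brca2, a tumour suppressor gene of the same pathway, had changes of -0.20 ± 0.138 and 0.068 ± 0.140 by its 2 probes, neither past the test. The recombination genes Rad51c and Xrcc3 (-0.097 and -0.18), the helicase gene Blm (-0.020) and the break-binding Rad50 (0.25, adjusted p = 0.101) did not pass either.

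The Fanconi anemia genes, whose products unhook strands that a crosslink holds together, gave calls in opposite directions. Fancg, a subunit of the core complex, had signals of 5.79 and 5.79 in ESC and 4.75, 4.43 and 4.46 in N2B27 48 hr. It was detected on both ESC arrays and on 0 of the 3 later ones, so it passed the filter only through the group where it is high, and the fall is a lower bound of 2.17-fold (adjusted p = 7.68e-05). Fancd2, which the core complex marks with ubiquitin, was at 8.01 and 7.95 in ESC and at 8.56, 8.52 and 8.21 later (0.45 ± 0.127, adjusted p = 0.0154). With ESC replicate 1, ESC replicate 2 or N2B27 48 hr replicate 2 left out the change was 0.47, 0.41 and 0.40, and the adjusted p of 0.0813, 0.127 and 0.0638 missed the threshold. The core subunit gene Fancc (0.17) and the ligase gene Fancl (-0.060) did not pass, and their groups overlap by the brighter probes.

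In mismatch repair the subunit that reads single mismatches fell. Msh6, which encodes that subunit, had signals of 12.52 and 12.57 in ESC and 11.88, 11.93 and 11.85 in N2B27 48 hr. All later arrays were lower by a margin several times the spread within groups (-0.66 ± 0.0699, 1.58-fold lower, adjusted p = 2.59e-05). Its second probe agreed in direction and size (-0.72 ± 0.0803, adjusted p = 3.62e-05). Msh3, which acts on longer loops, was at 5.39 and 5.15 in ESC and at 5.53, 5.82 and 5.57 later and did not pass (0.37 ± 0.161, adjusted p = 0.0857). Pms2, the nuclease subunit that acts next, did not pass (-0.20 ± 0.136, adjusted p = 0.276). Of the other mismatch genes listed, Mlh3 (-0.38), Pms1 (-0.040) and Exo1 (0.22) were tested, with adjusted p-values of 0.0677, 0.873 and 0.328. Of these 0 of 3 passed, where 45.2% of all genes were called.

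Of 7 genes of base excision and of the sealing of nicks, 6 were tested, 0 were higher and 1 was lower, beside 23.8% higher and 21.4% lower among all genes. Xrcc1, the scaffold that gathers the enzymes at a nick, had signals of 8.60 and 8.53 in ESC and 8.13, 8.04 and 8.04 later (-0.50 ± 0.104, 1.41-fold lower, adjusted p = 0.00284). The groups do not overlap, but the fit that left out ESC replicate 1 did not call it (-0.45, adjusted p = 0.0595). Its partners Lig3, a ligase (0.15), and Polb, the gap-filling polymerase (0.10), did not pass. Nor did Parp1, the sensor of strand breaks, by any of 3 probes (0.086, 0.11 and 0.36, adjusted p = 0.461, 0.359 and 0.0722), the endonuclease gene Apex1 by either probe (0.14 and 0.14) or the glycosylase gene Ogg1 (-0.064).

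In nucleotide excision all 5 genes were tested, 2 were higher and 0 were lower, beside 23.8% and 21.4% of all genes. The median change was 0.37, beside 0.049 for all genes. Under median scaling 0 of the 5 were called. Their changes then ran from -0.088 (Xpa) to 0.23 (Ddb2), where the median of all genes was -0.11. Ddb2, which finds ultraviolet damage in chromatin, was at 6.28 and 6.36 in ESC and at 6.95, 6.69 and 6.72 in N2B27 48 hr by its brightest probe (0.46 ± 0.142, adjusted p = 0.0219). A second probe rose by 0.68 ± 0.141 (adjusted p = 0.00263) and another did not pass (0.26, adjusted p = 0.200). Ercc1, part of the nuclease that cuts 5′ of the lesion, was at 6.85 and 6.74 in ESC and at 7.39, 7.07 and 7.16 later (0.41 ± 0.139, adjusted p = 0.0346). With ESC replicate 1, ESC replicate 2 or N2B27 48 hr replicate 1 left out Ddb2 was not called, at changes of 0.42, 0.50 and 0.39 (adjusted p = 0.153, 0.0963 and 0.0507). Nor was Ercc1 called in those fits, at 0.46, 0.36 and 0.32 (adjusted p = 0.115, 0.225 and 0.0809). The damage sensor gene Xpc was at 6.34 and 6.31 in ESC and at 6.62, 6.64 and 6.84 later and just missed the threshold (0.37 ± 0.139, adjusted p = 0.0511). It passed in 9 of 19 alternatives, among them the fit without N2B27 48 hr replicate 1 (adjusted p = 0.0456). Ddb1, partner of DDB2, changed by 0.24 ± 0.129 (adjusted p = 0.161) and the scaffold gene Xpa by 0.16 ± 0.143 (adjusted p = 0.402).

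In end joining the adaptor gene Trp53bp1 showed the largest rise among the members tested. It encodes 53BP1, which shields broken ends from resection and so favours their direct joining. By the brighter probe its signals were 9.04 and 8.84 in ESC and 10.26, 10.28 and 10.41 in N2B27 48 hr. The lowest later array lay more than 1 log2 unit above the highest ESC array, and the rise was 2.59-fold (1.37 ± 0.0985, adjusted p = 1.31e-06). The dimmer probe, at 6.11 and 5.41 in ESC and 6.99, 7.22 and 7.31 later, rose by a like amount (1.41 ± 0.200, adjusted p = 0.000206).

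Xrcc6, which encodes Ku70, one subunit of the ring that first grips an end, was at 10.43 and 10.36 in ESC and at 10.80, 10.84 and 10.65 later (0.37 ± 0.0881, 1.29-fold higher, adjusted p = 0.00618). A second probe was higher too (0.41, adjusted p = 0.0284) and another did not pass (0.20, adjusted p = 0.323), and without ESC replicate 2 the first had an adjusted p of 0.0772. The gene of its partner Ku80, Xrcc5, was undetected on every array by its only probe, which gives no level for it. Prkdc, the catalytic subunit of DNA-PK, did not pass by either probe (0.14 and -0.100), nor did Xrcc4, the cofactor of ligase IV (0.13). The ligase gene itself, Lig4, was detected on 1 ESC array only.

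At the checkpoint Chek1 rose and Mdm2 fell. Chek1, the kinase that ATR activates at stalled forks, was at 5.10 and 5.42 in ESC and at 5.70, 6.01 and 5.84 in N2B27 48 hr by its brightest probe (0.59 ± 0.166, adjusted p = 0.0150). The second probe gave 5.14 and 5.10 against 5.70, 5.92 and 5.95 (0.74 ± 0.151, adjusted p = 0.00242). The brightest probe did not pass without ESC replicate 1 (0.42, adjusted p = 0.189) or N2B27 48 hr replicate 2 (0.51, adjusted p = 0.0560). Chek2, the kinase below ATM, did not pass by any of 3 probes (-0.20, -0.41 and 0.079, adjusted p = 0.304, 0.0531 and 0.815), and neither did Atm (0.096 ± 0.164).

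Mdm2, the ligase that marks p53 for destruction and is itself a p53 target, had signals of 10.96 and 10.99 in ESC and 10.16, 10.17 and 10.37 later (-0.74 ± 0.0905, 1.67-fold lower, adjusted p = 7.38e-05). By a second probe the fall was larger (10.98 and 11.03 against 10.03, 9.96 and 10.13, -0.97 ± 0.0862, adjusted p = 7.0e-06). The ESC arrays lay above the later ones throughout, and the change stayed between -0.93 and -0.70 over the alternatives.

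Where a gene had several probes, their calls seldom differed. Of 15 members with at least 2 probes in the fit, 9 had no probe past the test, 4 had all probes called, 2 (Ddb2 and Xrcc6) had a mixture, and 0 had calls in opposite directions. The 9 share only the lack of a call, and their probes could differ in sign, as for Brca2 (-0.20 and 0.068) and Prkdc (0.14 and -0.100).

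The other listed genes of the same pathways were called in both directions. Of 90, 62 were tested, and 16 were higher (25.8%) and 10 were lower (16.1%), beside 23.8% and 21.4% of all genes. Their median change was 0.11, beside 0.049 for all genes. Under median scaling 3 were higher and 5 lower, without ESC replicate 1 the counts were 7 and 4, and without ESC replicate 2 they were 7 and 5. Other recombination and Fanconi genes gave 4 rises and 4 falls among 15 (26.7% each). Rad51d, a recombination gene, was at 5.13 and 5.02 in ESC and 6.01, 6.07 and 5.94 later and rose by 0.93 ± 0.145 (adjusted p = 0.00042) by the brightest of its probes; a dimmer one was higher too and another did not pass. The nuclease gene Mre11a rose by 0.57 ± 0.112 and the helicase gene Wrn by 0.55 ± 0.146, with adjusted p-values of 0.0515 and 0.111 without ESC replicate 2 and of 0.441 and 0.404 under median scaling. Fanci, Slx4, a nuclease scaffold, and Rpa3, a subunit of the single-strand binding protein RPA, fell by 0.88, 0.36 and 0.38. Rpa3 did not pass without ESC replicate 1 (adjusted p = 0.104), nor Slx4 without ESC replicate 1 or 2 (0.124 and 0.0744).

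In other excision genes 9 of 23 were higher (39.1%) and 2 were lower (8.7%), beside 23.8% and 21.4% of all genes. Most of the 9, though not Tdg and Aptx, lost their call under median scaling, so this share depends on how arrays were scaled. Tdg, the glycosylase that removes thymine from mispairs and also acts in demethylation, was at 6.91 and 7.02 in ESC and at 8.16, 8.08 and 8.07 later, a 2.20-fold rise (1.14 ± 0.113, adjusted p = 1.6e-05). Mutyh, the glycosylase for adenine opposite oxidized guanine, rose by 0.87 ± 0.134. Under median scaling its change was 0.64 and did not pass (adjusted p = 0.0691). Aptx rose by 0.60 ± 0.221 (adjusted p = 0.0489), a call lost in 10 alternatives, among them leaving out ESC replicate 1 (adjusted p = 0.154), ESC replicate 2 (0.247) or N2B27 48 hr replicate 2 (0.0607). Ercc4, which encodes XPF, fell from 8.04 and 8.15 to 6.46, 6.32 and 6.25, or 3.38-fold (-1.76 ± 0.13, adjusted p = 1.63e-06), and its dimmer probe was lower as well. The uracil glycosylase gene Ung fell by 0.37 ± 0.09. It missed the threshold under median scaling (-0.55), without ESC replicate 1 (-0.32) and with its probes averaged (-0.26, adjusted p = 0.107).

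Among other end joining genes 0 of 5 were higher and 2 were lower (40%). Among other checkpoint genes 3 of 16 were higher (18.8%) and 2 were lower (12.5%), beside 23.8% and 21.4% of all genes. Rif1 and Mad2l2, which encode effectors that act after 53BP1, were the end joining genes that fell. Rif1 was at 5.74 and 5.92 in ESC and at 4.39, 5.20 and 4.47 later, detected on 1 of the 3 later arrays (-1.14 ± 0.228, adjusted p = 0.00206). Mad2l2 fell by 0.59 ± 0.205 (adjusted p = 0.0391), a call that leaving out ESC replicate 1, ESC replicate 2 or N2B27 48 hr replicate 3 ended (adjusted p = 0.127, 0.214 and 0.0622). The checkpoint clamp loaded at damage holds RAD9A, RAD1 and HUS1. Rad1 rose by 0.50 ± 0.136 and Rad9a by 0.35 ± 0.131, while all 3 probes of Hus1 were lower (-0.36 ± 0.0993 by the brightest). Of these Rad1 did not pass without ESC replicate 1 (adjusted p = 0.147) and Hus1 not without ESC replicate 1 or 2 (0.0981 and 0.13). The call of Rad9a was lost with ESC replicate 1 or 2 left out (changes of 0.32 and 0.39). It was also lost without N2B27 48 hr replicate 1 or 3 (adjusted p = 0.0986 and 0.0502). With its probes averaged Rad9a changed by 0.16 and did not pass (adjusted p = 0.358). Clspn, the adaptor through which CHK1 is activated, rose by 0.45 ± 0.103. It was not called without ESC replicate 1 (0.40) or with its probes averaged (0.22, adjusted p = 0.105). Usp7, which encodes a deubiquitinase of MDM2 and p53, fell by 0.45 ± 0.115 and was not called without ESC replicate 2 (-0.37).

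Genes of proteins that work as a unit did not all move the same way. In the ERCC1-XPF nuclease Ercc1 was higher and Ercc4 lower. In the pair that the Fanconi core complex modifies, Fancd2 was higher and Fanci lower. In the MRN complex Mre11a was higher and Rad50, which did not pass, changed in the same direction (0.25). Nbn was undetected on every array by its 3 probes. The calls of Ercc1 and Fancd2 were lost in 6 and 4 alternatives, and differences between partners were not tested. These partners were set side by side after their values were seen.

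**Figure D3:**
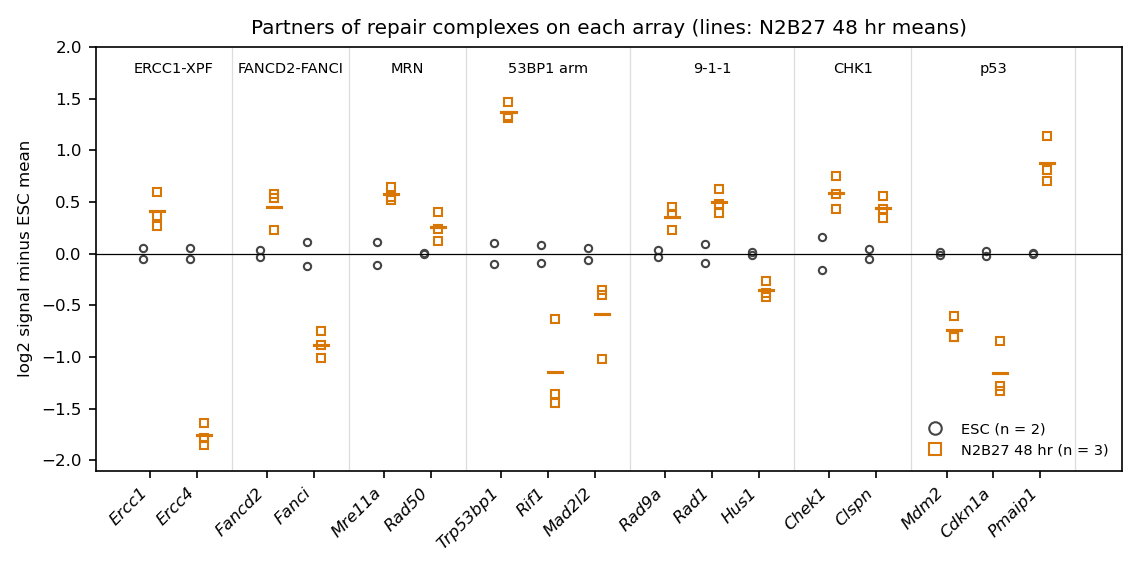
Log2 signal minus the gene's ESC mean on each array for partners in repair complexes and arms; circles are ESC arrays (n = 2), squares N2B27 48 hr arrays (n = 3), lines N2B27 48 hr means. Ercc4 lies near -1.76 and Ercc1 near 0.41, Trp53bp1 near 1.37 and Rif1 near -1.14.

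Of 16 targets of p53 tested, 8 were lower (50%), 1 was higher and 7 did not pass, where 21.4% of all genes were lower and 23.8% higher. They had a median change of -0.37 beside 0.049 for all genes, and Mdm2, which was not on that list, fell as given above. Cdkn1a, which encodes the cell cycle inhibitor p21, was at 8.93 and 8.88 in ESC and at 7.57, 7.62 and 8.06 later (-1.15 ± 0.147, 2.22-fold lower, adjusted p = 0.000103), and its 3 probes were all lower. Trp53inp1, a cofactor gene of p53 signalling, fell by 1.29 ± 0.117 and Ei24 by 0.97 ± 0.119. Pmaip1, which encodes the cell death protein NOXA, was the gene that rose (0.88 ± 0.166, adjusted p = 0.00142). Left-out arrays moved the count of lower targets to 5 without ESC replicate 1, 4 without ESC replicate 2 and 5 without N2B27 48 hr replicate 2. The gene of p53 itself was not measured, and nothing here measures its protein.

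Of 13 S phase and mitosis genes tested as markers of proliferation, 2 were higher, 2 were lower and 9 missed the threshold (median change 0.030), beside 45.2% called among all genes. Ccne1, the G1 to S cyclin, rose by 0.62 ± 0.124 and Tyms, thymidylate synthase, by 0.43 ± 0.0815. Neither passed under median scaling (adjusted p = 0.363 and 0.586), nor did Tyms with its probes averaged (0.17, adjusted p = 0.249). Cdc6, which licenses replication origins, and Cdk1, the mitotic kinase, fell by 0.30 ± 0.103 and 0.26 ± 0.0919. Both calls were lost with ESC replicate 1 or 2 left out, where Cdc6 changed by -0.28 and -0.32 and Cdk1 by -0.32 and -0.20. Both were also lost without N2B27 48 hr replicate 1 or 2 (adjusted p = 0.0606 to 0.0915). With its probes averaged Cdc6 did not pass (-0.21, adjusted p = 0.275).

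**Figure D4:**
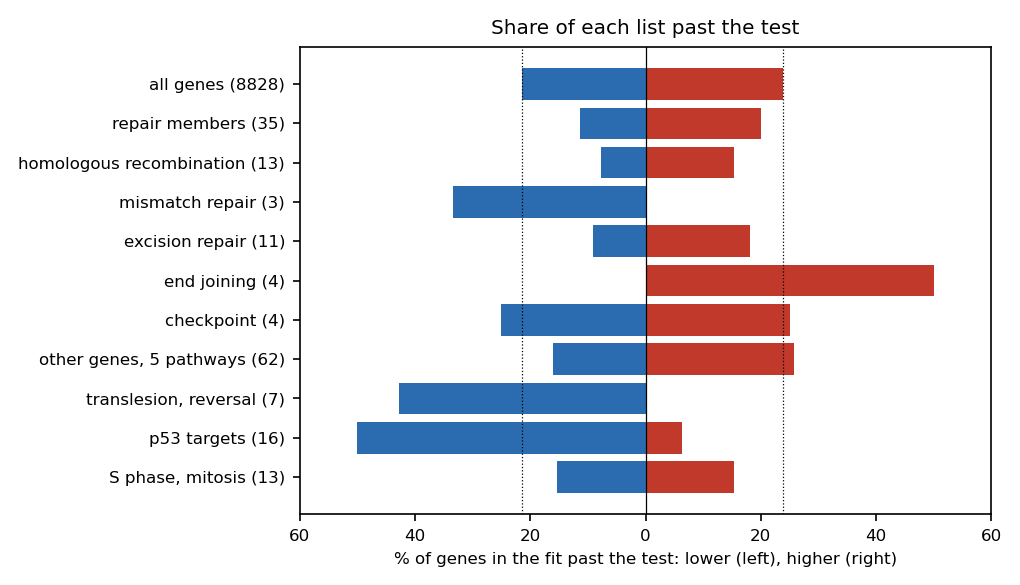
Percentage of the tested genes of each list past the test, lower to the left and higher to the right, with the number tested in brackets; dotted lines mark all genes (21.4% lower, 23.8% higher). All members as a group stand inside both lines, and 8 of 16 p53 targets lie to the left; in the lists of 3 or 4 genes each gene moves a bar widely.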

How the data were processed

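The 5 arrays were analysed, 1 for each sample, in the groups ESC (n = 2) and N2B27 48 hr (n = 3), taken from the sample titles. The labels do not say whether replicates were separate cultures. The p-values therefore rest on the spread between these 5 samples alone, which may be technical. RNA was extracted with Trizol and labelled as biotinylated cRNA, per the labels' protocols. The deposited intensity of each probe is an average over beads, linear and not normalized between arrays, with a detection p-value beside it, per the file headers. The submitters' processing notes name BeadStudio; its version and any background subtraction are not given in the sources used here. A second table holds the authors' normalized intensity, linear and with column medians of 65.2 to 65.3, which ranked the probes of each array as the first did.

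Background was corrected in limma 3.58.1 (R 4.3.3) by normexp with controls inferred from the detection p-values. An offset of 16 was added before log2 and quantile normalization, so changes understate those of dim genes. Probes detected at p under 0.05 on at least 2 arrays (12605) were fitted with lmFit and eBayes with a trend, as a two-sided test, and p-values were adjusted by Benjamini-Hochberg across those probes. Precision is limited by the small number of arrays: the median SE of a change was 0.139 for the members and 0.144 for all genes. The fit was tested on simulated data in which 200 probes changed, equally often up and down. In the real data 45.2% of genes were called, so that test does not check the normalization under so many changes. A gene was represented by its brightest probe in the fit. A bound for an undetected group uses, on each array, the higher of the probe's value and the lowest detected value. Symbols came from the platform annotation (23978 probes with a symbol, 1719 without), updated by Entrez identifier in a RefSeq table of GRCm38.p6 (23962 matched). Promoters came from RefSeq (GRCm38.p6). No chip or scan date was available as a batch. Every member is named, and of other lists the 3 largest called changes each way. Members and lists were chosen with earlier results of these data known. Figures were drawn with matplotlib 3.10.9.

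Alternatives were no background correction, normexp without controls, cyclic loess or median scaling, an offset of 50 or of 1, the authors' normalized values, other detection filters, each array left out, the replicate number as a block, no trend, array weights and averaging of probes.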

Additional observations from a re-analysis of the deposited data

How the results depend on the processing

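Of the values of the 35 members under the alternatives, 618 stayed on the same side of the threshold, 27 lost a call and 13 gained one. Of the values with a call in either fit, 0 changed sign. Members without a call did change sign within the 618, such as Apex1 (-0.12 to 0.31) and Xrcc4 (-0.15 to 0.39). Median scaling gave 760 higher genes in all against 2100, 1 higher member against 7, and 3 higher and 5 lower among the other pathway genes against 16 and 10. Leaving out an array gave 1277 to 2230 higher and 1066 to 2004 lower genes in all, 2 to 7 higher and 2 to 4 lower members, 7 to 18 higher and 4 to 11 lower other pathway genes, and 4 to 9 lower p53 targets. Fancg could not meet the filter in the fits with a single ESC array, where that array is taken to vary as the later ones do. The median change of the recombination members was 0.12, and 0.054 without background correction, 0.053 with an offset of 50, 0.22 with an offset of 1, -0.056 under median scaling, 0.055 with the authors' values, 0.051 without the detection filter and 0.0017 to 0.18 with an array left out. That of mismatch repair was -0.20, and -0.42 under median scaling and -0.27 under cyclic loess. Excision repair went from 0.15 to -0.088 and 0.060 under these scalings. End joining went from 0.25 to 0.087 under median scaling, 0.13 without the filter and 0.22 to 0.40 with an array left out, and the checkpoint from -0.051 to -0.24 under median scaling. The causes were not tested. With the replicate block 8 members were higher and 4 lower, and 2331 and 2025 genes in all, and Rad52 passed (0.39, adjusted p = 0.0120). Same-numbered samples of the groups did not deviate together (correlations -0.086 and -0.023 for replicates 1 and 2), and only 2 numbers are shared, so the numbers are not taken as pairs. The lists beyond the members were put through the alternatives after their values had been seen. Signal over background limits the dim members: Nbn, Neil3, Xrcc5 and Lig4 gave no change, and Fancg only a bound. Members near background, such as Brca1 and Ogg1, gave changes that the offset understates.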

Other observations

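Of 7 genes tested that bypass damage or reverse it directly, 3 were lower, 0 were higher and 4 did not pass, where 21.4% of all genes were lower and 23.8% higher. Mgmt, the methyltransferase that strips alkyl groups from guanine, was at 7.03 and 6.95 in ESC and at 5.58, 5.53 and 5.33 in N2B27 48 hr, a 2.85-fold fall (-1.51 ± 0.148, adjusted p = 1.42e-05 in limma). Rev3l, the catalytic subunit of the translesion polymerase zeta, fell by 1.06 ± 0.15. Alkbh2, an alkylation demethylase gene, fell by 0.43 ± 0.16, a call lost without either ESC array or without N2B27 48 hr replicate 2 or 3 (adjusted p = 0.173, 0.221, 0.0906 and 0.0908). MAD2L2, whose gene fell as well, is the partner of REV3L in that polymerase besides its part in end joining.

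Several members share their start region with a gene that runs the other way. Among the RefSeq promoters such a partner was found for 14 members, with a start within 1000 bases, and both genes were tested in 8 pairs. In 1 of the 8 both were called, where 45.2% of all single genes tested were called. These were Xrcc6 (0.37) and Desi1 (0.66), whose starts lie 147 bases apart, and both were higher. The call of Xrcc6 was lost under median scaling (0.18, adjusted p = 0.692) and without ESC replicate 2 (0.33). The partner genes were not put through the alternatives, and such pairs among all genes were not counted. Brca1 did not pass while Nbr1, 150 bases away, fell by 0.75 ± 0.166, and Xrcc4 did not pass while Tmem167, 57 bases away, rose by 0.80 ± 0.118. Wrap53, 107 bases from the start of Trp53, fell by 0.89 ± 0.145. The differences between the genes of a pair were not tested.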
